A study of Danio rerio with 6 samples.

Results

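Transcripts of 9 leukocyte marker genes were followed in RNA of sorted cardiac endothelial cells from regenerating zebrafish hearts. The markers were the myeloid genes SPI1 (spi1b), csf1ra and mpeg1.1, the pan-leukocyte genes ptprc, lcp1 and coro1a, the antigen presentation genes cd74a and cd74b, and the lymphocyte gene cd8a. They were taken by name from the count tables, with human-style names accepted, and matched 11 of the 32520 Ensembl gene IDs. Each name gave 1 ID, except that 3 IDs carry the name MPEG1, and the name table does not say which of them is mpeg1.1.

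Adult fish of strain Tu had part of the ventricle resected, and endothelial cells were collected 7 days later by sorting for green fluorescence from a kdrl:eGFP reporter, using ventricles of about 15 hearts. The DNK group carried kdrl:CreER, kdrl:eGFP and ubi:loxp-DsRed-stop-loxp-DN-xBrg1. In these fish the Cre recombinase, made under the endothelial kdrl promoter, lets the cells express a dominant-negative Xenopus Brg1, which is an altered form of the ATPase that drives SWI/SNF chromatin remodelling. The CtrlK group carried the same DN-xBrg1 transgene and reporter without kdrl:CreER. Per the treatment protocol both groups received 4-HT (4-hydroxytamoxifen, which activates CreER) for 3 days before resection, whereas other labels call CtrlK untreated or wild-type siblings. Effects of the Cre driver and of the dominant-negative protein cannot be told apart in this comparison. There were 3 libraries in each group, and whether these were separate pools of fish is not stated in the labels, so the p-values cover only the spread between libraries, which may be technical.

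Depth was shallow. The gene counts of a library summed to 200646 to 227373 in DNK and to 174371 to 216713 in CtrlK, so that 3 counts are worth 13.2 to 17.2 CPM (the usual scaling of counts to a library of common size). The share of all rows that was assigned to genes was 1.47% to 1.48% in DNK and 1.08% to 1.27% in CtrlK. Reads outside annotated genes numbered 3.18 to 3.73 per gene count in DNK and 4.85 to 6.0 in CtrlK. The share assigned to genes thus moved with the groups, and its part in the results below was not tested. Among 23 listed endothelial IDs, cdh5 (VE-cadherin) had 129 to 198 counts in DNK and 77 to 200 in CtrlK. The 23 IDs summed to 522 to 687 counts in DNK and 353 to 568 in CtrlK. Listed heart muscle IDs summed to 437 to 566 counts in DNK and 316 to 546 in CtrlK. Genes of other tissues, described below, summed to 423 to 474 in DNK and 616 to 779 in CtrlK. The purity of the sort was not tested. The reporter gene's source, kdrl, had 11 to 15 counts in DNK and 7 to 11 in CtrlK.

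After heart injury, macrophages and neutrophils enter the wound, and in zebrafish macrophages in particular are known to be needed for regeneration. PU.1, the product of SPI1, is the transcription factor that directs myeloid development, Csf1r is the receptor for the macrophage growth factor CSF1, and Mpeg1 is a pore-forming protein of macrophages. CD45 (ptprc), L-plastin (lcp1) and coronin 1A (coro1a) occur across white blood cells, CD74 is the invariant chain that chaperones MHC class II molecules, and CD8 alpha is a co-receptor of cytotoxic T cells. Endothelial cells are not defined by any of these genes, so in a bulk library they describe RNA of other cells in the sort, endothelial transcription of the gene, or both. A larger number of cells of a type and more RNA per cell cannot be told apart in such libraries.

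Of the 11 marker IDs, 4 had enough counts to be tested (SPI1, cd74a, cd74b and cd8a), and 1 of these, cd8a, passed at an adjusted p below 0.05. It was lower in DNK. Over all 3792 tested genes, edgeR's quasi-likelihood test called 7.12% in either direction, 4.72% higher and 2.40% lower in DNK. No marker was called higher by edgeR, while 2 of the 4, SPI1 and cd74a, had an unadjusted p under 0.05 in that direction. Over all tested genes 13.7% had such a p in the higher and 11.2% in the lower direction. DESeq2 and limma-voom also called 0 of the 4 higher and 1, cd8a, lower. DESeq2 called 5.35% of all genes higher and 2.64% lower, and limma-voom 3.64% and 1.21%. In SPI1 and cd74a each DNK library was above each CtrlK library, as in 16.2% of all tested genes, and in cd8a each was below, as in 14.6%. The other 7 IDs held few counts and are given as counts with intervals that cover counting error only.

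SPI1 (ENSDARG00000000767) had 16, 19 and 18 counts in DNK replicates 1, 2 and 3, against 2, 5 and 10 in CtrlK. Normalized to the libraries' TMM-scaled sizes, this was 79.1, 90.9 and 94.4 CPM in DNK and 10.3, 22.3 and 43.7 CPM in CtrlK. Each DNK library was above each CtrlK library, and the CtrlK libraries spread more widely among themselves than the DNK libraries did. The means were 88.1 ± 8.02 CPM in DNK and 25.5 ± 16.9 CPM in CtrlK (SD, n = 3 each), with a log2 fold change of 1.74 ± 0.52 (SE) that did not pass (edgeR adjusted p = 0.0541). When CtrlK replicate 3, the CtrlK library with the most SPI1, was left out, the SPI1 value was 2.39 (edgeR adjusted p = 0.0389), and over all 15 alternatives it was 1.42 to 2.39 (adjusted p of 0.0389 to 0.153). SPI1 reached the filter on low counts in 3 DNK libraries and in 0 CtrlK libraries, so that it was tested at all rests on its level in DNK.

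The second zebrafish copy, spi1a (ENSDARG00000067797), had the same direction. It held 43, 28 and 33 counts in DNK and 6, 14 and 25 in CtrlK, which is 173 ± 39.3 normalized CPM in DNK and 67.6 ± 39.3 in CtrlK (SD, n = 3 each). The 2 groups did not overlap, and the log2 fold change of 1.33 ± 0.46 (SE) did not pass (edgeR adjusted p = 0.0913). With that same library left out, spi1a had 1.88 on the log2 scale (edgeR adjusted p = 0.0456). It passed in this 1 of 15 alternatives, which ran over 1.02 to 1.88 (adjusted p of 0.0456 to 0.256). Within CtrlK both copies were lowest in replicate 1 and highest in replicate 3, whereas in DNK the library with the most spi1a, replicate 1, had the least SPI1.

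**Figure D1:**
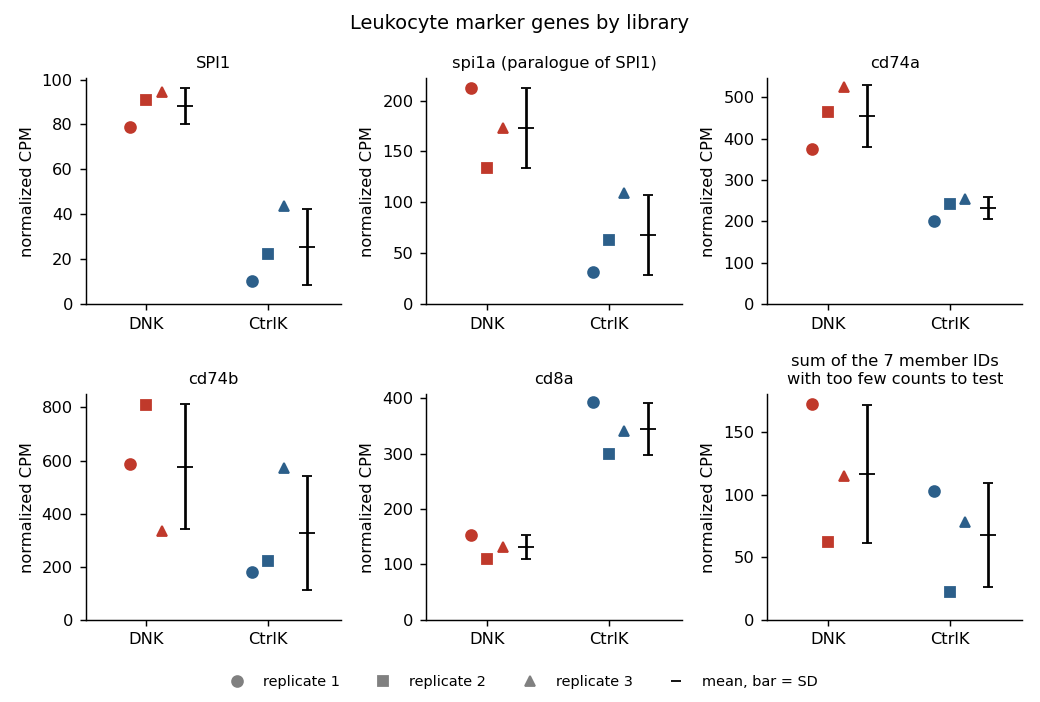
Normalized CPM (scaled by TMM library size) of the 4 tested marker genes, of spi1a and of the sum of the 7 marker IDs with too few counts to test. Each symbol is a library, the bar to the right of each group is its mean with SD (n = 3), and cd8a is the panel in which the DNK libraries (110 to 153 CPM) lie below the CtrlK libraries (299 to 393 CPM).

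The macrophage receptor gene csf1ra had 6, 6 and 7 counts in DNK and 5, 0 and 5 in CtrlK. The 19 counts of DNK against 10 of CtrlK gave a ratio of 2.04 (95% counting interval 0.902 to 4.91), an interval that includes no difference. Its copy csf1rb had 12 counts in DNK and 7 in CtrlK, a ratio of 1.84 (0.668 to 5.52). In RefSeq's gene table the next protein-coding gene beside csf1ra is pdgfrb, a receptor of the same kinase family that marks mural cells, and PDGFRB (ENSDARG00000100897) rose in DNK by 1.70 ± 0.40 (log2, SE, edgeR adjusted p = 0.0206). The PDGFRB call held in 12 of 15 alternatives, with an adjusted p of up to 0.0917. Other listed mural genes did not share one direction. CSPG4 had 10 counts in DNK and 30 in CtrlK, a ratio of 0.358 (95% counting interval 0.156 to 0.752). RGS5 had a log2 fold change of 0.03 ± 0.30 (SE, edgeR adjusted p = 0.953) and TAGLN (ENSDARG00000033466) 1.01 ± 0.44 (0.166).

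The macrophage effector genes named MPEG1 went in no common direction. ENSDARG00000043093 had 7, 1 and 1 counts in DNK and 2, 0 and 0 in CtrlK, of which 7 lay in a single library, DNK replicate 1. ENSDARG00000055290 had 4, 1 and 3 counts in DNK and 4, 1 and 10 in CtrlK, a ratio of 0.572 (95% counting interval 0.210 to 1.44). The third, ENSDARG00000078569, had 1 count in DNK and 0 in CtrlK. None of the 3 could be tested.

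The pan-leukocyte markers were close to the floor of 3 counts. ptprc had 3, 1 and 3 counts in DNK and 0 in each CtrlK library, which makes it at least 2.50-fold higher in DNK when CtrlK is set to 3 counts over the group, a bound that leaves out the counting error of the 7 DNK counts. CORO1A had 4, 0 and 3 counts in DNK and 0, 1 and 2 in CtrlK, a ratio of 2.50 (95% counting interval 0.572 to 15.0). LCP1 had 10, 4 and 5 counts in DNK and 9, 3 and 1 in CtrlK, a ratio of 1.57 (0.735 to 3.46). For ptprc, with as few counts, no test was made. For CORO1A and LCP1 the groups overlapped and a difference was not detectable at this depth. Added up, the 7 untested marker IDs held 35, 13 and 22 counts in DNK and 20, 5 and 18 in CtrlK, which also overlapped.

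The invariant chain genes carried most of the marker counts. cd74a (ENSDARG00000009087) had 76, 97 and 100 counts in DNK and 39, 54 and 58 in CtrlK, with no overlap between the groups. Its mean was 455 ± 74.8 normalized CPM in DNK and 232 ± 27.0 in CtrlK (SD, n = 3 each), and the log2 fold change of 0.97 ± 0.31 (SE) did not pass (edgeR adjusted p = 0.0681). Scaled to all rows of the file, which counts reads outside genes as well, SPI1 (log2 fold change 1.86, adjusted p = 0.0429) and cd74a (1.1, adjusted p = 0.0491) passed. With library size alone they did not, at 1.53 for SPI1 (adjusted p = 0.0805) and 0.75 for cd74a (0.135). In all, SPI1 passed in 2 of 15 alternatives and cd74a in 1 of 16.

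The second invariant chain gene, cd74b (ENSDARG00000036628), had 119, 169 and 64 counts in DNK and 35, 50 and 131 in CtrlK. Here the groups overlapped, since DNK replicate 3 was below CtrlK replicate 3. The means were 578 ± 237 normalized CPM in DNK and 326 ± 215 in CtrlK (SD, n = 3 each), and the log2 fold change was 0.82 ± 0.43 (SE, edgeR adjusted p = 0.253). The single CtrlK library decided much of this value, since leaving out CtrlK replicate 3 gave 1.53 (log2, edgeR adjusted p = 0.0428). The number of cd74b counts per cd74a count was 1.57, 1.74 and 0.640 in DNK and 0.897, 0.926 and 2.26 in CtrlK. The balance of the 2 copies thus differed between libraries of the same group more than between the groups (exact permutation p = 1.0, two-sided). Reads shared by these copies could be split or dropped by the counting, whose settings are not known here.

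The T cell marker cd8a (ENSDARG00000044797) ran the other way. It had 31, 23 and 25 counts in DNK and 76, 67 and 78 in CtrlK, so that each DNK library was under the lowest CtrlK library. The mean was 131 ± 21.6 normalized CPM in DNK and 344 ± 47.1 in CtrlK (SD, n = 3 each), which is a log2 fold change of −1.38 ± 0.33 (SE, edgeR adjusted p = 0.0226). It no longer passed when CtrlK replicate 1 was left out (adjusted p = 0.0689), without DNK replicate 1, 2 or 3 (0.0739, 0.102 and 0.0788) and with no filter on low counts (0.0777), over a range of 0.00465 to 0.102, while the log2 fold change stayed between −1.63 and −1.24. As CPM of all rows of the file, cd8a had 2.00, 1.52 and 1.85 in DNK and 4.79, 3.49 and 4.59 in CtrlK, again without overlap.

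The other genes that define T cells did not accompany cd8a at a comparable number of counts. cd8b, which encodes the partner chain of CD8 and lies beside cd8a in RefSeq's table, had 1, 1 and 2 counts in DNK and 2, 0 and 3 in CtrlK. The T cell receptor signalling genes lck (3 counts in DNK and 3 in CtrlK), ZAP70 (4 and 4), lat (0 and 8) and cd247 (0 and 2) were at or near 0. In RefSeq's table, made on the assembly GRCz12tu and not on that of the files, a model of gtf3c5, a transcription factor IIIC subunit gene, spans both cd8a and cd8b. GTF3C5 (ENSDARG00000067979) had 0 counts in each of the 6 libraries.

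The 31 symbols of T and NK cell genes matched 25 IDs. Over all tested genes 46.9% had positive log2 fold changes. Of the 25 IDs 3 could be tested, and all 3 had negative values. Beside cd8a these were IKZF1, a lymphoid transcription factor (−0.75 ± 0.37, SE, edgeR adjusted p = 0.223), and rorc, a nuclear receptor of T helper 17 and innate lymphoid cells in mammals (−0.28 ± 0.51, adjusted p = 0.766). The sign of rorc was positive when DNK replicate 2 or CtrlK replicate 1 was left out, with a value of up to 0.14. The 22 untested IDs summed to 25, 26 and 22 counts in DNK and 35, 72 and 46 in CtrlK, a ratio of 0.512 (95% counting interval 0.382 to 0.681). This interval leaves out the spread between libraries. Of the sum, ccl38.6 alone held 9, 4 and 4 counts in DNK and 5, 31 and 14 in CtrlK. Of 13 matched B cell IDs, 0 could be tested. The antigen receptor component cd79a was at 0 in all libraries, and the 13 IDs together had 17, 15 and 12 counts in DNK and 25, 30 and 17 in CtrlK, a ratio of 0.656 (95% counting interval 0.440 to 0.967). Their counts met at 17, while in CPM of gene counts, at 59.8 to 74.8 in DNK and 78.4 to 144.7 in CtrlK, the groups did not overlap (exact permutation p = 0.1, two-sided).

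Reads of genes of other tissues were also compared. A list of 323 IDs for odorant receptors, crystallins, opsins, egg coat and yolk proteins and other genes not expected in heart endothelium summed to 2190, 2268 and 2218 normalized CPM in DNK and to 3187, 3480 and 3037 in CtrlK, and 165 of the IDs had no counts. Of the 16 IDs that could be tested, 2 fell, 0 rose and 14 did not pass, and 3 had positive log2 fold changes. Over all tested genes 2.40% fell, 4.72% rose and 46.9% had positive values. Per 100 counts of the other-tissue genes, cd8a had 7.00, 4.85 and 5.91 in DNK and 12.3, 8.60 and 11.2 in CtrlK. The groups still did not overlap (exact permutation p = 0.1, two-sided, the smallest that 3 libraries against 3 can give). The part of such reads in the cd8a values was not tested.

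**Figure D2:**
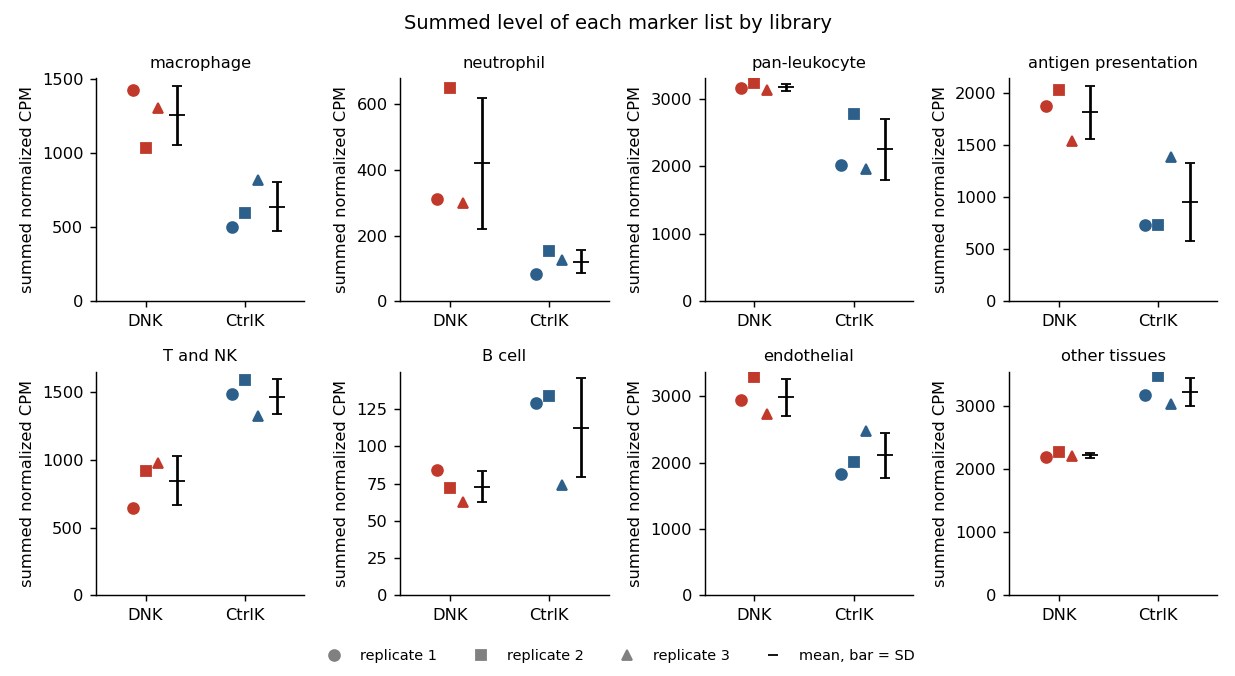
Summed normalized CPM of 8 marker lists in each library, the 9 markers included. Symbols are libraries and bars are means with SD (n = 3), and the DNK libraries lie above the CtrlK libraries for macrophage, neutrophil, pan-leukocyte, antigen presentation and endothelial genes and below them for T and NK genes and genes of other tissues, while B cell genes overlap.

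The separation of some summed lists rests on the scaling. In CPM of gene counts without TMM factors, the groups overlapped for pan-leukocyte genes (exact permutation p = 0.3, two-sided), antigen presentation genes (0.2) and endothelial genes (0.3), while the macrophage, neutrophil, T and NK, and other-tissue lists lay apart as in the plot. Single genes also weigh on these sums. In the neutrophil list CSF3R had 51, 120 and 43 counts in DNK and 6, 14 and 15 in CtrlK. The other 9 IDs, with 12, 16 and 14 against 10, 20 and 14, overlapped. In the pan-leukocyte list lcp2a alone had 712, 699 and 582 normalized CPM in DNK and 93.1, 197 and 13.1 in CtrlK. That list summed to 3149, 3226 and 3125 in DNK and 2023, 2765 and 1958 in CtrlK.

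The myeloid, pan-leukocyte and antigen presentation markers together were then compared with cd8a within each library, where depth and scaling drop out. The 10 marker IDs other than cd8a held 246, 298 and 204 counts in DNK and 96, 114 and 217 in CtrlK. For each cd8a count this is 7.94, 13 and 8.16 counts in DNK and 1.26, 1.70 and 2.78 in CtrlK. The log2 ratio averaged 3.24 ± 0.40 in DNK and 0.86 ± 0.58 in CtrlK (SD, n = 3 each), a difference of 2.38, and every DNK library was above every CtrlK library (exact permutation p = 0.1, two-sided). With both cd74 genes left out, the remaining 8 IDs gave 1.65, 1.39 and 1.6 counts per cd8a count in DNK and 0.289, 0.149 and 0.359 in CtrlK, a log2 difference of 2.63 (exact permutation p = 0.1). The groups were thus apart in this ratio whether or not the invariant chain genes were counted. Both versions divide by the same cd8a counts, which by themselves did not overlap between the groups. Leaving out the cd74 genes is therefore no separate check of the ratio. The sums also hold genes that are not particular to myeloid cells. The 5 myeloid IDs alone had 34, 27 and 29 counts in DNK and 13, 6 and 25 in CtrlK. In the same libraries cd8a had 31, 23 and 25 in DNK and 76, 67 and 78 in CtrlK.

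**Figure D3:**
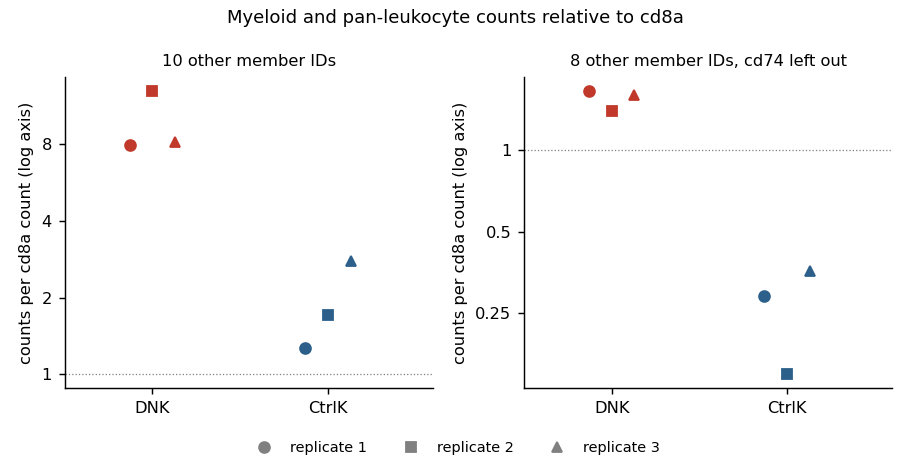
Counts of the other markers per cd8a count in each library, on a log axis with base 2, with all 10 other marker IDs on the left and with cd74a and cd74b left out on the right. The DNK libraries sit between 7.94 and 13 on the left and between 1.39 and 1.65 on the right, all above the CtrlK libraries.

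Part of this ratio lies in cd8a and part in the other markers. As a share of gene counts, the 10 other IDs made up 0.108%, 0.133% and 0.102% in DNK and 0.0551%, 0.0550% and 0.10% in CtrlK. CtrlK replicate 3 came within a small margin of DNK replicate 3. Set against the counts of 23 endothelial IDs, the 10 IDs had 41.3, 43.4 and 39.1 counts per 100 endothelial counts in DNK and 27.2, 25.3 and 38.2 in CtrlK (exact permutation p = 0.1, two-sided). By the same measure cd8a had 5.21, 3.35 and 4.79 in DNK and 21.5, 14.9 and 13.7 in CtrlK.

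Whether the markers vary together was read from the 4 tested genes. In normalized CPM, SPI1 and cd74a put the libraries in the same order inside each group, with replicate 1 lowest and replicate 3 highest. For SPI1 in DNK this order rests on 16, 19 and 18 counts, which differ by little, and replicate 3 was highest only after scaling. cd74b shared the order of SPI1 and cd74a in CtrlK but had replicate 3 lowest in DNK. Since the 2 groups lie apart, Pearson's r of log2 CPM was taken after the group means were removed, as a description over 6 libraries. It was 0.67 between SPI1 and cd74a, 0.72 between SPI1 and cd74b and 0.12 between cd74a and cd74b. The deviations of cd8a had r of −0.66, −0.42 and −0.28 with those of cd74a, SPI1 and cd74b. Its order inside the groups was another one, with replicate 1 highest and replicate 2 lowest in both DNK and CtrlK.

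Among the other tested genes, those most like SPI1 over the 6 libraries were prodha (proline dehydrogenase, r = 0.993), cirbpa (a cold-inducible RNA-binding protein, 0.988), hmga1a (a chromatin architectural protein, 0.986), PRELID3B (0.986) and FOXO1 (a forkhead transcription factor, 0.985). Those most like cd8a were AGGF1 (r = 0.992), the mitochondrial thymidine kinase gene TK2 (0.991), myt1la (0.989), LRRC4B (0.986) and dnah9l (0.984). An r over 0.9 with SPI1 was reached by 225 of 3791 genes and with cd8a by 119, so such likeness over 6 libraries in 2 groups was common. PRELID3B rose by 1.24 ± 0.35 (log2, SE, edgeR adjusted p = 0.0454) and TK2 fell (−2.18 ± 0.45, adjusted p = 0.0135), while the other 8 did not pass. Over all tested genes 7.12% passed. The genes named here were picked by an r that carries the group difference, so their calls are values only and no separate support.

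Wider lists of the same cell types gave further genes. The lists of macrophage, neutrophil, pan-leukocyte and antigen presentation genes matched 68 IDs beside the markers, of which 23 passed the filter on low counts and could be tested. Of these 23, 5 rose, 0 fell and 18 did not pass, where 4.72% of all tested genes rose and 2.40% fell, a background that also stands behind the counts of each list below. The median log2 fold change of the 23 was 0.68, against −0.07 over all tested genes, and 18 were positive, against 46.9% of all tested genes. In 11 of the 23 each DNK library was above each CtrlK library, as in 16.2% of all tested genes. With libraries scaled by gene counts alone 16 were positive and 3 rose, and with all rows of the file 20 were positive and 5 rose. These 2 scalings moved the median of all genes to −0.30 and 0.06. Some of the 23 genes passed the filter mainly through DNK libraries. For ctss2.1 these were 3 DNK and 0 CtrlK libraries, and for SLC7A7 and NCF1 3 and 1. The counts of rising, positive and non-overlapping genes among the 23 thus depend in part on the filter, and are no independent support.

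In the macrophage list 2 of 8 tested genes rose. SLC7A7, an amino acid transporter subunit known from zebrafish microglia and macrophages, had 26, 22 and 26 counts in DNK and 4, 4 and 13 in CtrlK (log2 fold change 1.92 ± 0.51, SE, edgeR adjusted p = 0.0373). The protease gene ctss2.1, a cathepsin S copy, had 14, 14 and 14 counts in DNK and 3, 4 and 2 in CtrlK (2.27 ± 0.58, adjusted p = 0.0292), and, like SPI1, reached the filter through the DNK libraries alone. The complement gene c1qa had 16, 26 and 13 counts in DNK and 14, 20 and 11 in CtrlK, and the scavenger receptor gene marco had 38, 13 and 40 in DNK and 7, 15 and 30 in CtrlK. Neither passed, and both overlapped. The 20 untested macrophage IDs, markers left out, summed to 45, 37 and 57 counts in DNK and 23, 40 and 48 in CtrlK. These sums overlapped, with a ratio of 1.34 (counting interval 1.04 to 1.74).

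The neutrophil list had 1 tested gene, CSF3R, the receptor for granulocyte colony-stimulating factor, and it rose. It had 51, 120 and 43 counts in DNK and 6, 14 and 15 in CtrlK, without overlap and with DNK replicate 2 far above the rest. The log2 fold change was 2.70 ± 0.46 (SE, edgeR adjusted p = 0.00530), and the call held in each of the fits that left out a library (adjusted p of 0.0110 to 0.0246). Among the untested genes of the list, nccrp1 had 14 counts in DNK and 7 in CtrlK, a ratio of 2.15 (95% counting interval 0.811 to 6.28). The protease gene MMP9 had 2 in DNK and 4 in CtrlK, npsn had 1 in DNK and 0 in CtrlK, and lyz and mmp13a were at 0 in all 6 libraries. The 9 untested neutrophil IDs together had 12, 16 and 14 counts in DNK and 10, 20 and 14 in CtrlK, a ratio of 1.02 (95% counting interval 0.655 to 1.6).

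In the pan-leukocyte list 1 of 12 tested genes rose, namely lcp2a, which encodes the adaptor SLP-76 of immune receptor signalling. It had 144, 146 and 111 counts in DNK and 18, 44 and 3 in CtrlK (log2 fold change 2.71 ± 0.54, SE, edgeR adjusted p = 0.0108). CtrlK replicate 3, the library in which SPI1 and cd74b were highest for that group, had the least lcp2a. The NADPH oxidase subunit gene NCF1 had 17, 25 and 14 counts in DNK and 6, 9 and 11 in CtrlK and did not pass (1.2 ± 0.46, adjusted p = 0.118). Of the 12 genes, 7 had positive and 5 negative values, the lowest being INPP5D, a lipid phosphatase of blood cells, at −0.80 ± 0.33 (adjusted p = 0.152). The 14 untested pan-leukocyte IDs, markers left out, summed to 60, 62 and 58 counts in DNK and 39, 57 and 68 in CtrlK. These sums overlapped, and their ratio was 1.18 (counting interval 0.948 to 1.46), an interval that includes no difference. Single genes in the sum went both ways. FERMT3 (ENSDARG00000030938) had 23 counts in DNK and 1 in CtrlK, a ratio of 24.7 (4.01 to 1017). The other ID named FERMT3 (ENSDARG00000079267) had 26 and 23, a ratio of 1.21 (0.665 to 2.23). CXCR4 (ENSDARG00000057633) had 4 and 14, a ratio of 0.307 (0.0735 to 0.976). The other ID named CXCR4 (ENSDARG00000041959) had 23 and 26, a ratio of 0.949 (0.517 to 1.73). The differences were thus not shared by the other IDs of the same names.

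In the antigen presentation list 2 of 7 tested genes rose, ctss2.1 and cd83. CD83 is a surface protein of mature dendritic cells in mammals, and cd83 had 47, 53 and 45 counts in DNK and 15, 3 and 25 in CtrlK (log2 fold change 1.84 ± 0.50, SE, edgeR adjusted p = 0.0397). The regulators of MHC class II transcription ciita and rfx5 had log2 fold changes of 0.08 ± 0.48 and 0.02 ± 0.45 (adjusted p = 0.928 and 0.981). The difference between these and cd74a was not tested. The untested genes of the list did not share one direction. The MHC class II gene mhc2dab had 8, 3 and 5 counts in DNK and 8, 3 and 15 in CtrlK. Its ratio was 0.660 (counting interval 0.331 to 1.28), an interval that includes no difference. cd40 had 23, 8 and 11 counts in DNK and 1, 3 and 0 in CtrlK, a ratio of 11.3 (4.09 to 43.3). ctss1 had 2 counts in DNK and 1 in CtrlK.

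Most of these calls did not hold with fewer libraries. With 1 library left out at a time, SLC7A7 (edgeR adjusted p of 0.0666 to 0.113) and cd83 (0.0783 to 0.0921) did not pass in 5 of 6 fits, the exception being the fit that lacked CtrlK replicate 3. ctss2.1 passed in 0 of the 6 (0.0644 to 0.112). In the fits that did not pass, the log2 fold change was 1.65 to 2.06 for SLC7A7, 1.37 to 1.97 for cd83 and 2.05 to 2.52 for ctss2.1. The lcp2a call was lost without DNK replicate 1 (0.0517). The log2 fold changes of SLC7A7 and cd83 were 2.67 and 2.46 in the fit that lacked CtrlK replicate 3, and that of lcp2a was 3.71 in the fit that lacked CtrlK replicate 2. With limma-voom SLC7A7 (adjusted p = 0.0755) and ctss2.1 (0.142) did not pass, and with library size alone SLC7A7 (0.0545) and cd83 (0.0629) did not.

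**Figure D4:**
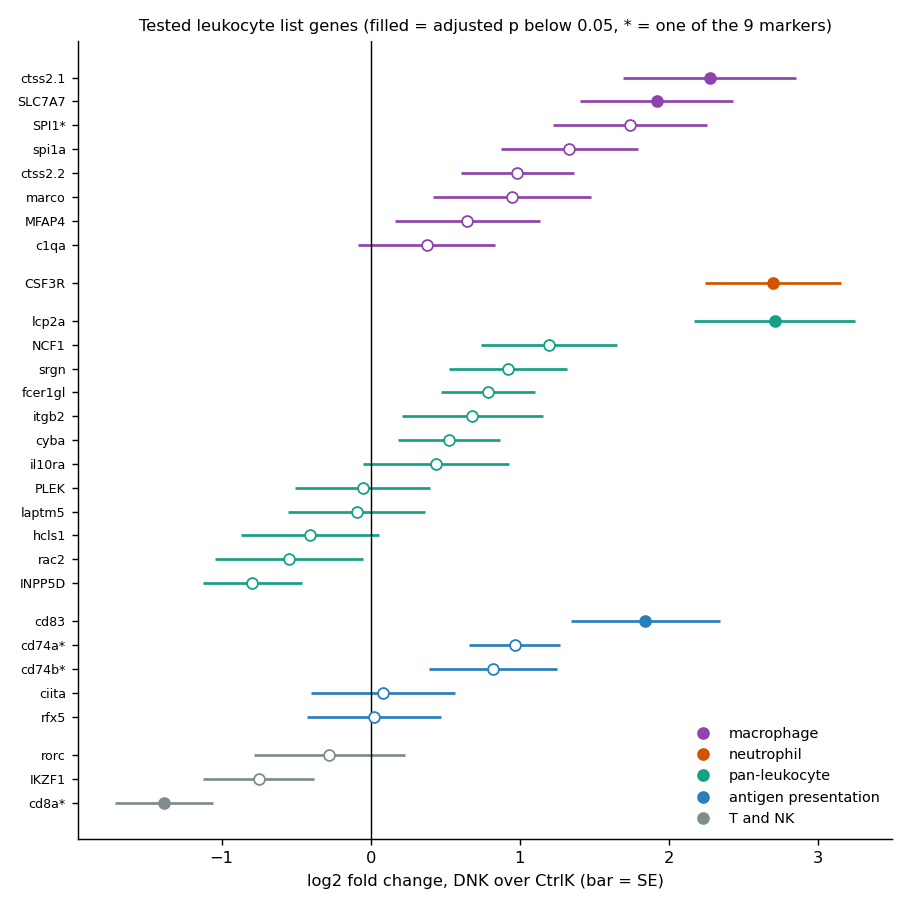
Log2 fold change of DNK over CtrlK with its SE for every tested gene of the leukocyte lists, each drawn once under the first list that holds it. Filled symbols passed at an adjusted p below 0.05, an asterisk marks a gene of the 9 markers, and the called genes are CSF3R, lcp2a, ctss2.1, SLC7A7 and cd83 on the right and cd8a on the left.

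Markers of other cells that the sort could hold were listed beside these. Of 11 tested endothelial genes 1 rose (vwf), of 5 cardiomyocyte genes 1 (atp2a2a), of 9 fibroblast and mural genes 2 (PDGFRB and COL1A2) and of 3 thrombocyte genes 0. Of these, atp2a2a passed the filter on low counts in 3 DNK and 0 CtrlK libraries, so its test rests on its level in DNK. These calls held in 13 of 16 alternatives for vwf, 11 of 15 for COL1A2 and 4 of 15 for atp2a2a. None of these list genes was called lower, where 4.72% of all tested genes rose and 2.40% fell. The summed thrombocyte list was lower in DNK, at 673, 734 and 852 CPM of gene counts, against 1474, 1423 and 1080 in CtrlK (exact permutation p = 0.1, two-sided). In it F13A1 (ENSDARG00000045453) had a log2 fold change of −1.18 ± 0.36 (SE, edgeR adjusted p = 0.0582) and f13a1b 1.18 ± 0.46 (0.126). Most counts of the list lay in THBS1 (ENSDARG00000010785), with 245 in DNK and 359 in CtrlK, and in F13A1 (ENSDARG00000045453), with 122 and 297. By contrast itga2b (2 and 4), gp9 (3 and 2), mpl (0 and 2) and GP1BB (1 and 0) were at or near 0. ITGB3 (ENSDARG00000056767) had 11 and 49 counts and NFE2 23 and 16. The summed endothelial genes had 2941, 3288 and 2737 normalized CPM in DNK and 1827, 2014 and 2482 in CtrlK. Per 100 endothelial counts, the myeloid, pan-leukocyte and antigen presentation lists without the 9 markers had 177, 160 and 182 counts in DNK and 150, 180 and 130 in CtrlK, which overlapped (exact permutation p = 0.3, two-sided). Red cell globin genes were at or near 0, with 0, 1 and 0 counts of hbaa1 in DNK and 1, 0 and 1 in CtrlK and no counts of hbaa2. The part of these other cells in the marker values was not tested.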

How the data were processed

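RNA of sorted cells was reverse-transcribed and amplified by MALBAC without molecular identifiers, per the labels' protocols. The authors deposited raw counts per Ensembl gene. The submitters' processing notes name Trim Galore 0.6.0, HISAT2 2.1.0, HTSeq 0.6.1, DESeq2 1.22.2 and GRCz11, with no role or order. Annotation release and strand setting were not given in the sources used here, and overlapping and antisense genes cannot be told apart. The 5 rows that name no gene held 98.5% to 98.9% of each file and were left out. A gene ID table named 29201 of 32520 IDs.

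Genes kept by filterByExpr (3792) were fitted with edgeR 4.0.16 in R 4.3.3 (TMM, glmQLFit with robust = TRUE, glmQLFTest) and a call is an adjusted p (Benjamini-Hochberg, over all of them) below 0.05. SE is the absolute log2 fold change over the square root of F. The steps were tested on simulated data. Ratios of summed counts use TMM-scaled sizes and exact binomial intervals, which cover counting error only and not the spread between libraries. Shares and ratios were compared by exact permutation tests. Transcript lengths were not used. Counts set side by side between genes, such as cd8a and the other T cell genes, are therefore counts and not relative expression levels. Markers and lists were chosen with earlier results of these data known. Named from each list were up to 4 called genes with the smallest p or, with none called, 2 as values, and the 5 genes most like SPI1 and cd8a; not every such gene is printed, and other genes named as values, such as c1qa, marco, NCF1, INPP5D, ciita, rfx5, nccrp1, MMP9 and the T cell genes, were chosen after their values were seen. Also chosen after their values were seen were alas2, gata1a, cd40, mhc2dab, FERMT3, CXCR4 and ccl38.6. The same holds for CSPG4, RGS5, TAGLN, THBS1 and the other thrombocyte genes given as counts. List symbols were also matched by capital names without a copy letter, which took in ITGA2 for itga2b. Alternatives were DESeq2 1.42.0, limma 3.58.1 voom with quality weights, other scalings and filters, robust = FALSE, the replicate number as a block, and leaving out each library. No pair of libraries agreed within sampling noise (chi-square per degree of freedom 3.08 to 9.18).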

Additional observations from a re-analysis of the deposited data

How the results depend on the processing

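All 4 tested markers kept the sign of their log2 fold change in each alternative that could fit them; SPI1 could not be fitted with at least 50 counts in 3 libraries. Of all genes 179 were called higher and 91 lower in DNK. Calls lower numbered 164 with library size alone, 60 scaled to all rows of the file and 46 with limma-voom, and calls higher 283 with no filter and 106 with at least 50 counts in 3 libraries. Markers called higher were 0, but 2 scaled to all rows (SPI1 at 1.86 and cd74a at 1.1), and markers called lower were 1, but 0 with no filter (cd8a at −1.27). In the leukocyte lists, markers included, 5 were called higher. The number was 7 with no filter, 7 scaled to all rows, 3 with library size alone, 3 with limma-voom and 1 with at least 50 counts. In the same lists 1 was called lower, but 0 with no filter and 2 with at least 50 counts, INPP5D being the second.

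Leaving out 1 library each gave 74 to 213 genes higher, 14 to 64 lower, 0 to 2 markers higher, 0 to 1 lower, and 1 to 7 list genes higher and 0 to 1 lower. The log2 fold changes then ran from 1.42 to 2.39 (SPI1), 0.89 to 1.13 (cd74a), 0.53 to 1.53 (cd74b) and −1.47 to −1.24 (cd8a). The difference in marker share, 0.0444 percentage points, was 0.0349 to 0.0594 with 1 library left out each and 0.00878 without cd74a and cd74b, a setting chosen after seeing the data. The log2 ratio to cd8a, 2.38, was 2.12 to 2.69.

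Deviations of same-numbered libraries from their group means had r of −0.105, −0.00297 and −0.0418. No pairing by number was thus seen, though so few libraries at this depth cannot exclude it. With the replicate block 169 genes were higher and 83 lower, and no marker call changed (cd8a −1.39). The depth limits 7 of the 11 marker IDs to counts.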
